A study of Mus musculus with 12 samples.

Results

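The genes described here encode keratins, desmosome proteins and proteins of the cornified envelope. They were chosen by symbol: every numbered keratin other than Krt8, Krt18, Krt19 and Krt14, the desmogleins, desmocollins and plakophilins, the small proline-rich and late envelope proteins, and Dsp, Jup, Evpl, Ppl, Tgm1, Sbsn and a few named barrier genes. The rule found 39 of the 7318 genes in the count table, of which 25 were keratins, 9 were desmosome genes and 5 were envelope or cornification genes. Lor, Flg, Ivl, Tgm3, Krtdap and the late envelope genes were not analysed here. Of the keratins, 14 type I genes lay on chromosome 11 and 11 type II genes on chromosome 15. Krt7, Krt20 and Krt23 belong to simple rather than stratified epithelia, so the keratins among the 39 are not all stratified ones.

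RNA and ribosome footprints were sequenced from mammary cells of female mice of the FVB/N strain, 4 weeks of age and with the genotype MMTV-Wnt1 / MMTV-iFgfr1, 6 h after intraperitoneal AP20187 or vehicle, with 3 libraries in each of 4 groups. AP20187 is a small molecule that brings together and so activates the engineered receptor iFGFR1, and the vehicle mice carried the same 2 transgenes. The comparison therefore asks what FGFR1 activation added in cells that already had raised WNT signalling. The MMTV promoter drives both transgenes mainly in mammary epithelium, and no mice without the receptor received AP20187, so the compound and the receptor cannot be told apart. Cells of glands 3 to 5 were enriched by short spins after collagenase digestion, with no sort given in the labels, and whether mice were pooled for a library is not stated. Adjusted p-values thus cover only the spread between libraries, part of which may be technical. Totals over the listed genes were 94513818 to 237015762 counts in the AP20187 and 99484140 to 251874393 in the vehicle RNA libraries, and 3042199 to 11018709 and 1772969 to 4007613 in the footprint libraries of the same groups. The 39 genes held 0.463%, 0.555% and 0.503% of the RNA counts of the AP20187 libraries 1, 2 and 3, against 0.621%, 0.577% and 0.590% in the vehicle libraries.

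Keratins are the intermediate filaments of epithelial cells and form obligate pairs of a type I and a type II chain. Desmosomes fasten these filaments to the cell border: the cadherins of the desmoglein and desmocollin families cross the membrane, plakoglobin and the plakophilins bind their tails, and desmoplakin ties the plaque to the keratins. In the upper layers of a stratified epithelium, transglutaminases cross-link envoplakin, periplakin and small proline-rich proteins into the cornified envelope. The mammary gland has a luminal layer marked by Krt8 and Krt18 and a basal, contractile layer marked by Krt5, Krt14 and Krt17, and it does not cornify.

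Promoter windows of 5 of the genes are shown because the keratins Krt7, Krt79 and Krt23 fell in RNA, the basal keratin Krt5 did not pass the test, and Sprr1a, which encodes an envelope precursor, fell, while all 5 windows hold the letters ATAAAA. Sequences are from RefSeq on GRCm38.p6 and run 5′ to 3′ on the gene's strand from 250 bases before to 50 bases after the annotated start. The windows are chr15:101412153-101412452 on the plus strand, and chr15:101940275-101940574, chr11:99493071-99493370, chr15:101712856-101713155 and chr3:92485832-92486131 on the minus strand. Capitals mark every match to ATAAAA, to the AP-1 type element TGANTCA or to the AP-2 type element GCCNNNGGC, searched on both strands.
Krt7: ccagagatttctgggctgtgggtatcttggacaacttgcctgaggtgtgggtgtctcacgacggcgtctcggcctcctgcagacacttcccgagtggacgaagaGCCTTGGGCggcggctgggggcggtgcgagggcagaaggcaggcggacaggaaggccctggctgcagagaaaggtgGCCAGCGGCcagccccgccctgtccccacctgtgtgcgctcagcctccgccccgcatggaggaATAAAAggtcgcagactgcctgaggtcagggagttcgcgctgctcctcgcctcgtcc
Krt79: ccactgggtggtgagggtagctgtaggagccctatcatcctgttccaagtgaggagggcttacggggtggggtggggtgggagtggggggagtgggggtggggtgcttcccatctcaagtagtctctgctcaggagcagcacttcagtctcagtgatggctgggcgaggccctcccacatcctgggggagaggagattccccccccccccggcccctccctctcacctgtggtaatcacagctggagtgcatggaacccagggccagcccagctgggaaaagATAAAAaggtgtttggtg
Krt23: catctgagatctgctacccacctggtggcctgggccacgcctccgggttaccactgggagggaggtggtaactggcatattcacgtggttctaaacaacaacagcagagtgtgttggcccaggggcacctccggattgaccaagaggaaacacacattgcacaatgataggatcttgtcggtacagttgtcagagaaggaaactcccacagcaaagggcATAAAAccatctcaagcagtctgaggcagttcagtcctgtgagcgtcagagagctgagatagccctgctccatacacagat
Krt5: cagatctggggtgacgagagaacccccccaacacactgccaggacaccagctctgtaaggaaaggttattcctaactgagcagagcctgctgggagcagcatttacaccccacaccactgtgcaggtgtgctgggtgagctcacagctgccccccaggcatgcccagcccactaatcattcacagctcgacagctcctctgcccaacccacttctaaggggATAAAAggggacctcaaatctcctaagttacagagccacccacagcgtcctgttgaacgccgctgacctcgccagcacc
Sprr1a: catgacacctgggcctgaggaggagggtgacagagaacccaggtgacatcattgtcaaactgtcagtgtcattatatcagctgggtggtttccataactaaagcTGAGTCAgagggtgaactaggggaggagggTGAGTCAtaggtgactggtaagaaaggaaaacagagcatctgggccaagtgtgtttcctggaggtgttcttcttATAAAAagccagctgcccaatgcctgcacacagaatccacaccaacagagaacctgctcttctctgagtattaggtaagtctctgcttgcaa
The first base of ATAAAA lay 7 bases before the start in Krt7, 31 in Krt23, 29 in Krt5 and 42 in Sprr1a, and 33 bases after it in Krt79. Sprr1a alone of these 5 held TGANTCA, with matches beginning 146 and 116 bases before its start, and Krt7 alone held GCCNNNGGC, beginning 146 and 70 bases before its start. Of the 39 genes, 22 had a window in the RefSeq table. ATAAAA was found in the windows of 10 of these 22 genes and in 18.5% of all 32851 promoter windows, TGANTCA in 2 of the genes (Sbsn and Sprr1a) and 7.81% of windows, and GCCNNNGGC in 3 of the genes (Dsp, Krt42 and Krt7) and 16.6% of windows. ATAAAA was chosen after these promoters had been read, and a match describes the letters only.

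In RNA, 2 of the 39 genes rose with AP20187, 15 fell and 22 did not pass the test (adjusted p under 0.05, edgeR quasi-likelihood test), where 26.2% of all genes tested passed in either direction. The basal-layer keratins Krt15 and Krt17 rose. The genes that fell were the keratins Krt4, Krt6a, Krt79, Krt80, Krt7, Krt23, Krt1 and Krt77, the cadherins Dsc2 and Dsg3, the plaque gene Pkp4, the envelope precursors Evpl, Ppl and Sprr1a, and the secreted protein gene Sbsn. Levels are given in CPM, each gene's count relative to the TMM-adjusted total of its library. All 39 passed the filter on low counts, so 5.13% were higher and 38.5% lower, beside 12.4% higher and 13.9% lower of the 7314 genes tested. The median log2 fold change of the 39 was −0.66, beside 0.013 over all genes tested. In 16 of the 39 every AP20187 library lay below every vehicle library (23.1% of all genes) and in 4, Dsg2, Krt17, Pkp1 and Pkp3, every AP20187 library lay above (21.9% of all genes). In these bulk samples, fewer cells of a type and less RNA per cell cannot be told apart.

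**Figure D1:**
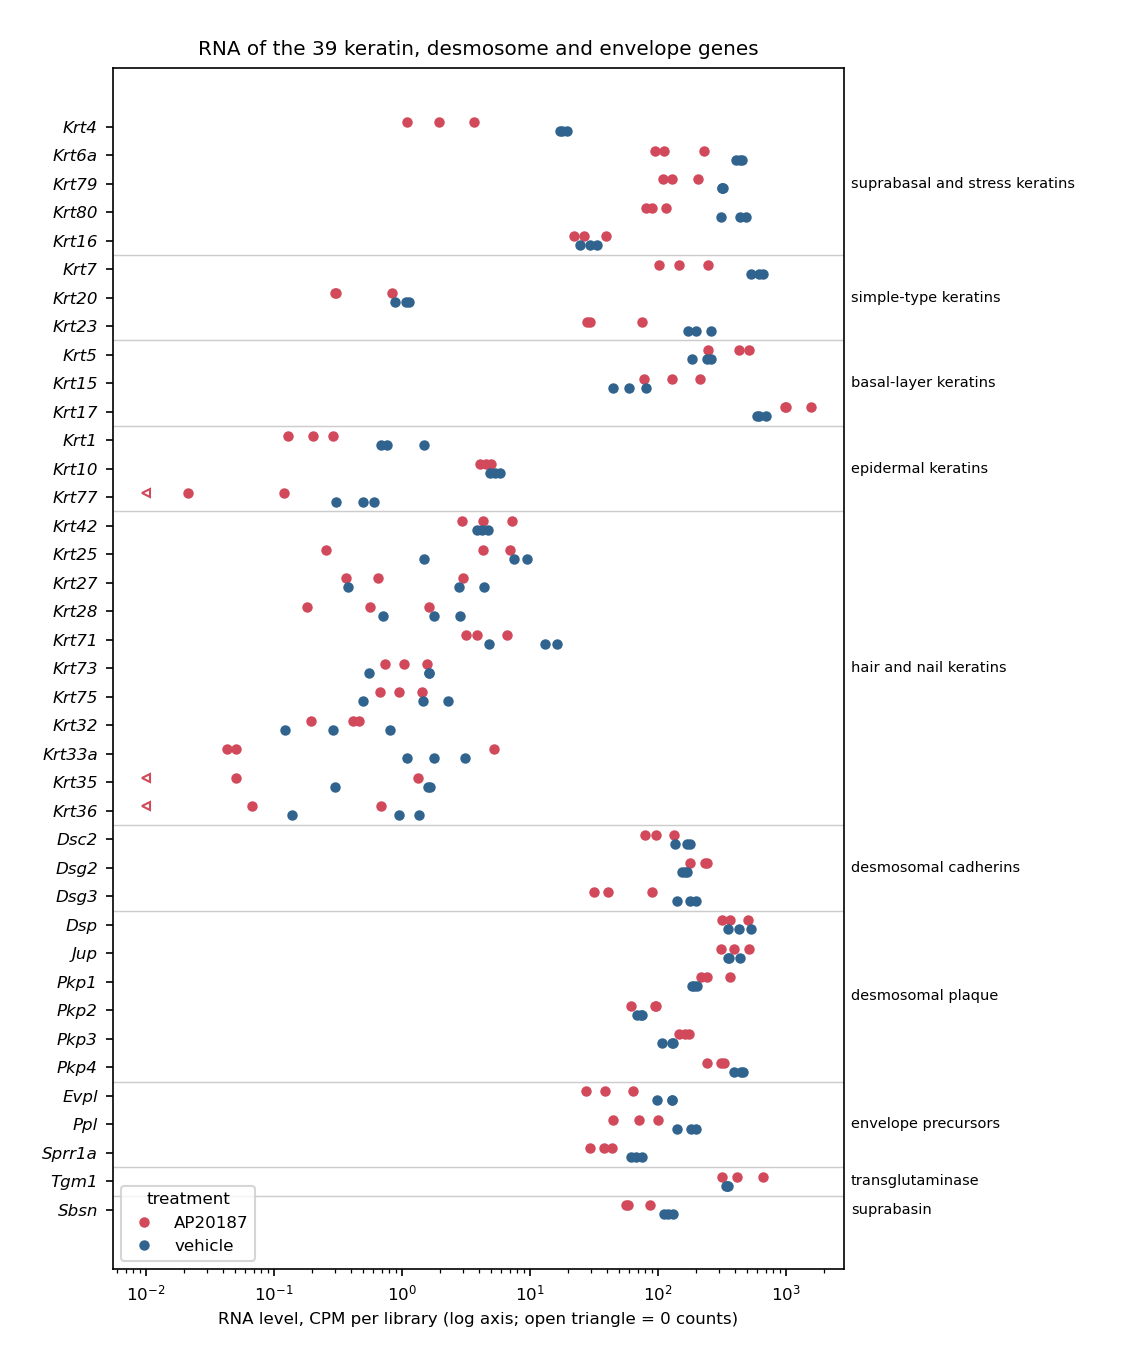
RNA level of each of the 39 genes in CPM on a log axis, with 1 point per library for AP20187 (red, upper) and vehicle (blue, lower), grouped by the role of the protein; an open triangle is a library with 0 counts. For Krt4, Krt80, Krt7 and Krt23 the AP20187 points lie well below the vehicle points, while the hair and nail keratins overlap.

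Markers of several cell types moved in the same libraries. Summed luminal markers, 8 of 13 listed, were 6617 to 9205 CPM with AP20187 and 3945 to 4971 CPM with vehicle. Summed myoepithelial markers, 9 of 10 listed, were 1703 to 2879 CPM with AP20187 and 4409 to 5328 CPM with vehicle. Keratinocyte markers outside the rule, 11 of 19 listed, summed to 2060 to 2847 CPM with AP20187 and 4141 to 5187 CPM with vehicle. Of these, Ly6d, Gsta4, Asprv1, Calml3 and Krt14 fell and Fabp5 and Lgals7 rose. Krt14 and Trp63 are in both the myoepithelial and the keratinocyte list. Krt14 alone averaged 1353 CPM with AP20187 and 2869 CPM with vehicle, so these 2 sums are not separate. Fibroblast markers, 6 of 10 listed, summed to 1225 to 1648 CPM with AP20187 and 3297 to 5770 CPM with vehicle. Endothelial markers, 4 of 8 listed, summed to 286 to 327 CPM with AP20187 and 531 to 717 CPM with vehicle, and adipocyte markers, 4 of 8 listed, to 47.0 to 101 CPM and 259 to 496 CPM in the same groups. Leukocyte markers, 4 of 8 listed, summed to 199 to 305 CPM with AP20187 and 226 to 461 CPM with vehicle, Schwann cell markers, 6 of 7 listed, to 541 to 824 CPM and 396 to 483 CPM, and skeletal muscle markers, 3 of 6 listed, to between 9.0 and 10.5 CPM between 20.1 and 27.8 CPM. No marker was at 0 in any RNA library. The part of these shifts in the results on keratins, desmosomes and the envelope was not tested.

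Of the 5 keratins of suprabasal and stressed epithelium 4 fell. Krt80, a type II keratin of differentiating cells that lies at chr15:101347444-101370162 on the minus strand of GRCm38, was at 116, 90.7 and 80.4 CPM in the AP20187 libraries and 490.0, 311 and 438 CPM in the vehicle libraries. The groups did not overlap, and the log2 change was −2.11 ± 0.21 (SE, adjusted p = 0.00513). Krt6a, a keratin of wounded and activated epidermis, was at 112, 229.7 and 95.4 CPM with AP20187 and 439, 408 and 454 CPM with vehicle, a change of −1.57 ± 0.31 (adjusted p = 0.0119). Its AP20187 libraries differed among themselves by more than its vehicle libraries, AP20187 library 2 being the highest. Krt79, known from the hair follicle canal, was at 109.9, 206 and 130.2 CPM with AP20187 and 316, 322 and 319.6 CPM with vehicle, a change of −1.10 ± 0.22 (adjusted p = 0.0128). Krt4, the type II keratin of the upper layers of mucosal epithelia such as the oesophagus, was less abundant per length than these 3, with 1.96, 3.69 and 1.10 CPM under AP20187 and 19.5, 17.7 and 17.4 CPM under vehicle, and fell by 3.02 ± 0.42 on the log2 scale (adjusted p = 0.00625). Krt16, the usual type I partner of Krt6a, did not pass, at 29.3 ± 9.03 CPM with AP20187 and 29.2 ± 4.30 CPM with vehicle (SD, n = 3 each), a log2 change of 0.0030 ± 0.24 (SE, edgeR adjusted p = 0.994). Of the 30-base windows of the transcripts, 55.4% in Krt6a and 52.7% in Krt16 occur in other annotated genes as well, Krt6b and a predicted gene for Krt6a and Krt14, Krt17 and a predicted gene for Krt16. Values of these 2 genes are therefore uncertain. All 4 calls held in each fit that left out 1 library.

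Of the 3 simple-type keratins 2 fell. Krt7, a keratin of ductal epithelia (chr15:101411043-101430313, plus strand), was at 146, 248 and 102 CPM with AP20187 and 621, 534 and 669 CPM with vehicle, a log2 change of −1.88 ± 0.30 (SE, adjusted p = 0.00755). Krt23, a type I keratin (chr11:99477974-99493137, minus strand), was at 29.8, 75.2 and 28.1 CPM with AP20187 and 201, 172 and 259.7 CPM with vehicle, a change of −2.25 ± 0.38 (adjusted p = 0.00852). For both genes AP20187 library 2 was the highest of its group and still lay below every vehicle library. Both calls held in each fit that left out 1 library. Krt20, a keratin of gut and urothelium, was scarce, with 0.305, 0.836 and 0.301 CPM in AP20187 libraries and 1.15, 0.885 and 1.08 CPM in vehicle libraries, and did not pass (edgeR adjusted p = 0.130), although it passed without AP20187 library 2 (adjusted p = 0.0145).

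Of the 3 basal-layer keratins within the rule 2 rose, while Krt14, the basal keratin left out of it, fell by 1.08 ± 0.21 on the log2 scale (SE, edgeR adjusted p = 0.0116). Krt17 (chr11:100256217-100261029, minus strand), which per length had the highest RNA level of the 39 genes in both groups, had 998, 984 and 1561 CPM in AP20187 libraries and 591, 703 and 616 CPM in vehicle libraries, without overlap, and its log2 change was 0.89 ± 0.21 (SE, adjusted p = 0.0206). Krt15, a keratin of basal cells and of the hair follicle bulge, had 77.7, 128 and 213 CPM with AP20187 and 59.6, 81.1 and 44.9 CPM with vehicle, a change of 1.17 ± 0.36 (adjusted p = 0.0441). AP20187 library 1 lay below vehicle library 2 for Krt15, so its groups overlapped. Krt5, the type II partner of Krt14, averaged 399 ± 139 CPM with AP20187 and 229 ± 39.9 CPM with vehicle (SD, n = 3 each), a log2 change of 0.80 ± 0.27 that did not pass (SE, edgeR adjusted p = 0.0578). Left-out libraries moved all 3 results. Krt17 did not pass without vehicle library 1 (adjusted p = 0.0774) or 3 (adjusted p = 0.0835). Krt15 did not pass without vehicle library 1 (adjusted p = 0.117) or 3 (adjusted p = 0.153), or without AP20187 library 2 (adjusted p = 0.0531) or 3 (adjusted p = 0.0865), nor with limma voom (adjusted p = 0.0511) or with library totals as the only scaling (adjusted p = 0.0534). Krt5 passed without AP20187 library 1 (adjusted p = 0.0262).

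The keratins of cornifying epidermis were scarce, and 2 of 3 fell. Krt1, which pairs with Krt10 above the basal layer of the epidermis, was at 0.202, 0.290 and 0.129 CPM with AP20187 and 0.771, 0.685 and 1.5 CPM with vehicle, and its log2 change was −2.23 ± 0.52 (SE, adjusted p = 0.0195). Krt10 averaged 4.56 ± 0.477 CPM with AP20187 and 5.36 ± 0.516 CPM with vehicle (SD, n = 3 each), a change of −0.24 ± 0.24 that did not pass (SE, edgeR adjusted p = 0.482). Krt77, another type II epidermal keratin, had 0, 14 and 2 counts in the AP20187 libraries and 124, 40 and 58 counts in the vehicle libraries. It fell (adjusted p = 0.0424), and with a library at 0, which allows up to 0.0129 CPM by counting error alone, its fitted fold is not given. The call on Krt1 was lost without vehicle library 3 (adjusted p = 0.0918) or AP20187 library 1 (adjusted p = 0.0683). That on Krt77 was lost without vehicle library 1 (adjusted p = 0.107), 2 (adjusted p = 0.0586) or 3 (adjusted p = 0.130), without AP20187 library 1 (adjusted p = 0.0740) or 3 (adjusted p = 0.0821), and with DESeq2 (adjusted p = 0.0568).

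The make-up of the keratin family differed between the treatments. Per kilobase of exon, Krt8 and Krt18 together held 56.5 ± 7.68% of all listed keratin RNA with AP20187 and 29.9 ± 5.20% with vehicle (SD, n = 3 each). Krt14 held 15.2 ± 3.82% with AP20187 and 34.0 ± 4.93% with vehicle, and Krt19 held 4.15 ± 0.865% with AP20187 and 9.59 ± 0.893% with vehicle. Krt5, Krt15 and Krt17 together held 19.1 ± 2.68% with AP20187 and 11.1 ± 1.40% with vehicle. Krt4, Krt6a, Krt79, Krt80, Krt7 and Krt23 together held 4.46 ± 2.33% with AP20187 and 14.6 ± 1.24% with vehicle. The 11 hair and nail keratins held 0.209 ± 0.117% with AP20187 and 0.350 ± 0.174% with vehicle. The summed type II over type I level per length was 0.516, 0.451 and 0.457 in AP20187 RNA libraries and 0.384, 0.373 and 0.308 in vehicle RNA libraries, without overlap. In footprints the same ratio was 0.158, 0.219 and 0.182 with AP20187 and 0.164, 0.200 and 0.235 with vehicle, which overlapped. Krt8 shares 26.9% of its 50-base windows and 32.9% of its 30-base windows with other annotated genes, a pseudogene among them, and Krt14 14.4% and 30.1%, so their shares are uncertain. These sets were formed after the values were seen and are given without a test.

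**Figure D2:**
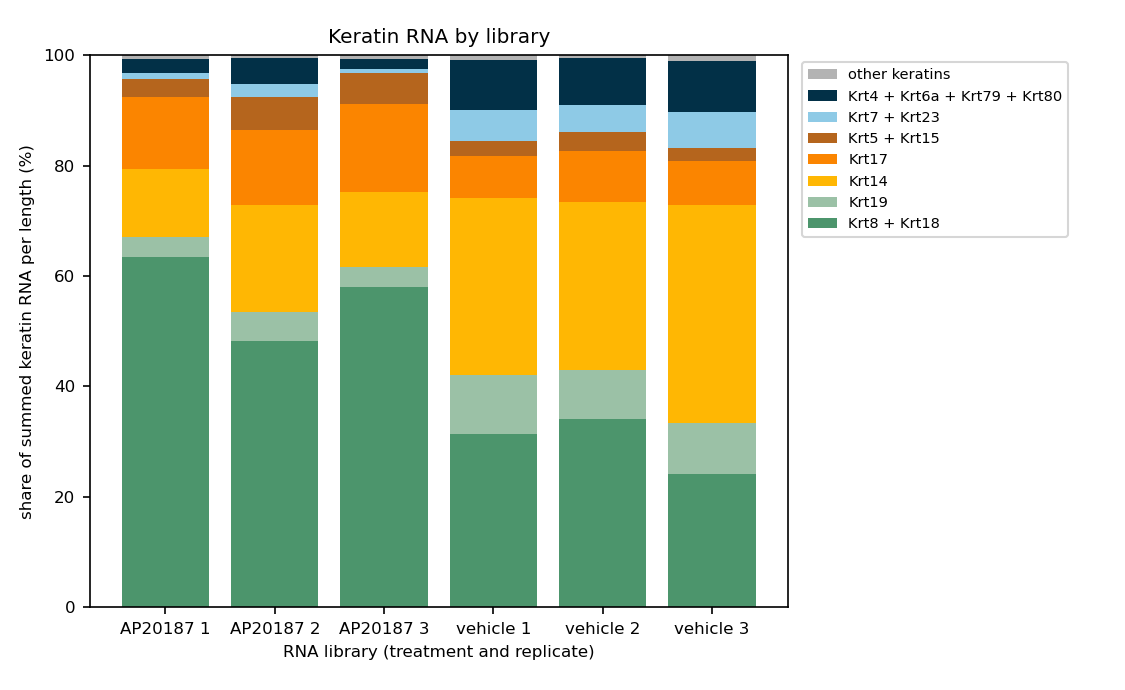
Share of the summed keratin RNA per kilobase of exon (%) taken by each keratin set in each RNA library, AP20187 libraries left and vehicle libraries right. Krt8 and Krt18 take 48.2% to 63.4% in AP20187 libraries and 24.0% to 34.1% in vehicle libraries.

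Of the 3 desmosomal cadherins 2 fell and 0 rose. Dsg3, a desmoglein concentrated in the lower layers of the epidermis and in mucosa, was at 41.1, 89.4 and 31.6 CPM with AP20187 and 178, 142 and 199 CPM with vehicle, a log2 change of −1.68 ± 0.36 (SE, adjusted p = 0.0153). Dsc2, the widely expressed desmocollin, was at 96.6, 133 and 79.4 CPM with AP20187 and 168, 137 and 178 CPM with vehicle, a change of −0.65 ± 0.20 (adjusted p = 0.0475). Neither gene overlapped between groups, although for Dsc2 AP20187 library 2 came within a few CPM of vehicle library 2. Dsg2, the desmoglein of simple epithelia, was at 242, 234 and 178 CPM with AP20187 and 170.3, 154 and 164 CPM with vehicle. All 3 AP20187 libraries were above the vehicle libraries, but the change of 0.42 ± 0.15 did not pass (adjusted p = 0.0659). Within a library, log2 of Dsg3 counts over Dsg2 counts, not scaled by length, was −2.56, −1.39 and −2.49 with AP20187. With vehicle it was 0.061, −0.12 and 0.28, for a pair chosen after the values were seen. Dsg3 did not pass without vehicle library 3 (adjusted p = 0.0586) or AP20187 library 1 (adjusted p = 0.0511). Dsc2 did not pass without vehicle library 1 (adjusted p = 0.136) or 3 (adjusted p = 0.162), or AP20187 library 1 (adjusted p = 0.138) or 3 (adjusted p = 0.102), nor with library totals as the only scaling (adjusted p = 0.0579), while Dsg2 passed without AP20187 library 3 (adjusted p = 0.0268).

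Of the 6 plaque genes only Pkp4 passed. Pkp4, a plakophilin relative found at desmosomes and adherens junctions, was at 309, 244 and 330.2 CPM with AP20187 and 462, 396 and 445 CPM with vehicle, a log2 change of −0.56 ± 0.16 (SE, adjusted p = 0.0339). Dsp, encoding desmoplakin, was at 364, 503 and 319.5 CPM with AP20187 and 533, 353 and 433 CPM with vehicle, with overlapping groups and a change of −0.15 ± 0.22 (adjusted p = 0.627). Jup, encoding plakoglobin, averaged 407 ± 101 CPM with AP20187 and 383 ± 46.0 CPM with vehicle (SD, n = 3 each; edgeR adjusted p = 0.767). Pkp1, the plakophilin of stratified epithelia, averaged 275 ± 78.7 CPM with AP20187 and 192 ± 9.74 CPM with vehicle, and Pkp3, found in most epithelia, 162 ± 13.7 CPM and 122 ± 12.8 CPM in the same groups. For both, the AP20187 libraries were all above the vehicle libraries without passing (edgeR adjusted p = 0.0849 for Pkp1 and 0.0547 for Pkp3). Pkp2, the plakophilin of simple epithelia and heart, averaged 84.8 ± 19.6 CPM with AP20187 and 72.9 ± 3.53 CPM with vehicle (edgeR adjusted p = 0.403), and it passed without AP20187 library 2 (adjusted p = 0.0378). Pkp4 did not pass without vehicle library 1 (adjusted p = 0.129) or 3 (adjusted p = 0.117), or AP20187 library 1 (adjusted p = 0.0846) or 2 (adjusted p = 0.0534). DESeq2 called Dsg2, Pkp1, Pkp3 and Krt5 higher as well, with adjusted p-values of 0.0420, 0.0459, 0.0346 and 0.0109.

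All 3 envelope precursors fell. Evpl, encoding envoplakin (chr11:116220559-116238077, minus strand), was at 38.8, 64.1 and 27.4 CPM with AP20187 and 129, 99.0 and 128 CPM with vehicle, a log2 change of −1.45 ± 0.29 (SE, adjusted p = 0.0125). Ppl, encoding its partner periplakin (chr16:5086291-5132421, minus strand), was at 71.4, 100.0 and 44.5 CPM with AP20187 and 199, 142 and 182 CPM with vehicle, a change of −1.28 ± 0.28 (adjusted p = 0.0159). Both plakins had their highest AP20187 value in library 2 and their lowest vehicle value in library 2, without overlap. Sprr1a, a small proline-rich envelope precursor induced in stressed epithelium, was at 37.7, 43.9 and 29.5 CPM with AP20187 and 75.5, 61.4 and 67.9 CPM with vehicle, a change of −0.88 ± 0.18 (adjusted p = 0.0124). Sbsn, encoding the secreted protein suprabasin, was at 59.0, 87.2 and 56.3 CPM with AP20187 and 120.3, 112 and 132 CPM with vehicle, a change of −0.85 ± 0.19 (adjusted p = 0.0168). Tgm1, the membrane-bound transglutaminase that cross-links the envelope, did not pass the test. It was at 669, 319 and 417 CPM with AP20187 and 354, 343 and 350.0 CPM with vehicle. AP20187 library 1 stood highest and library 2 lay below every vehicle library, and the change of 0.42 ± 0.25 did not pass (adjusted p = 0.233, and 0.0459 without AP20187 library 2). Evpl passed in each fit that left out 1 library. Ppl did not pass without vehicle library 1 (adjusted p = 0.0527) or 3 (adjusted p = 0.0579) or AP20187 library 1 (adjusted p = 0.0501), nor Sbsn without the same libraries (adjusted p = 0.0545, 0.0718 and 0.0626), nor Sprr1a without vehicle library 1 (adjusted p = 0.0534). An exon of Sbsn overlaps Tmem147os on the same strand, and 11.4% of its 30-base windows occur there, so its counts are uncertain to that extent.

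**Figure D3:**
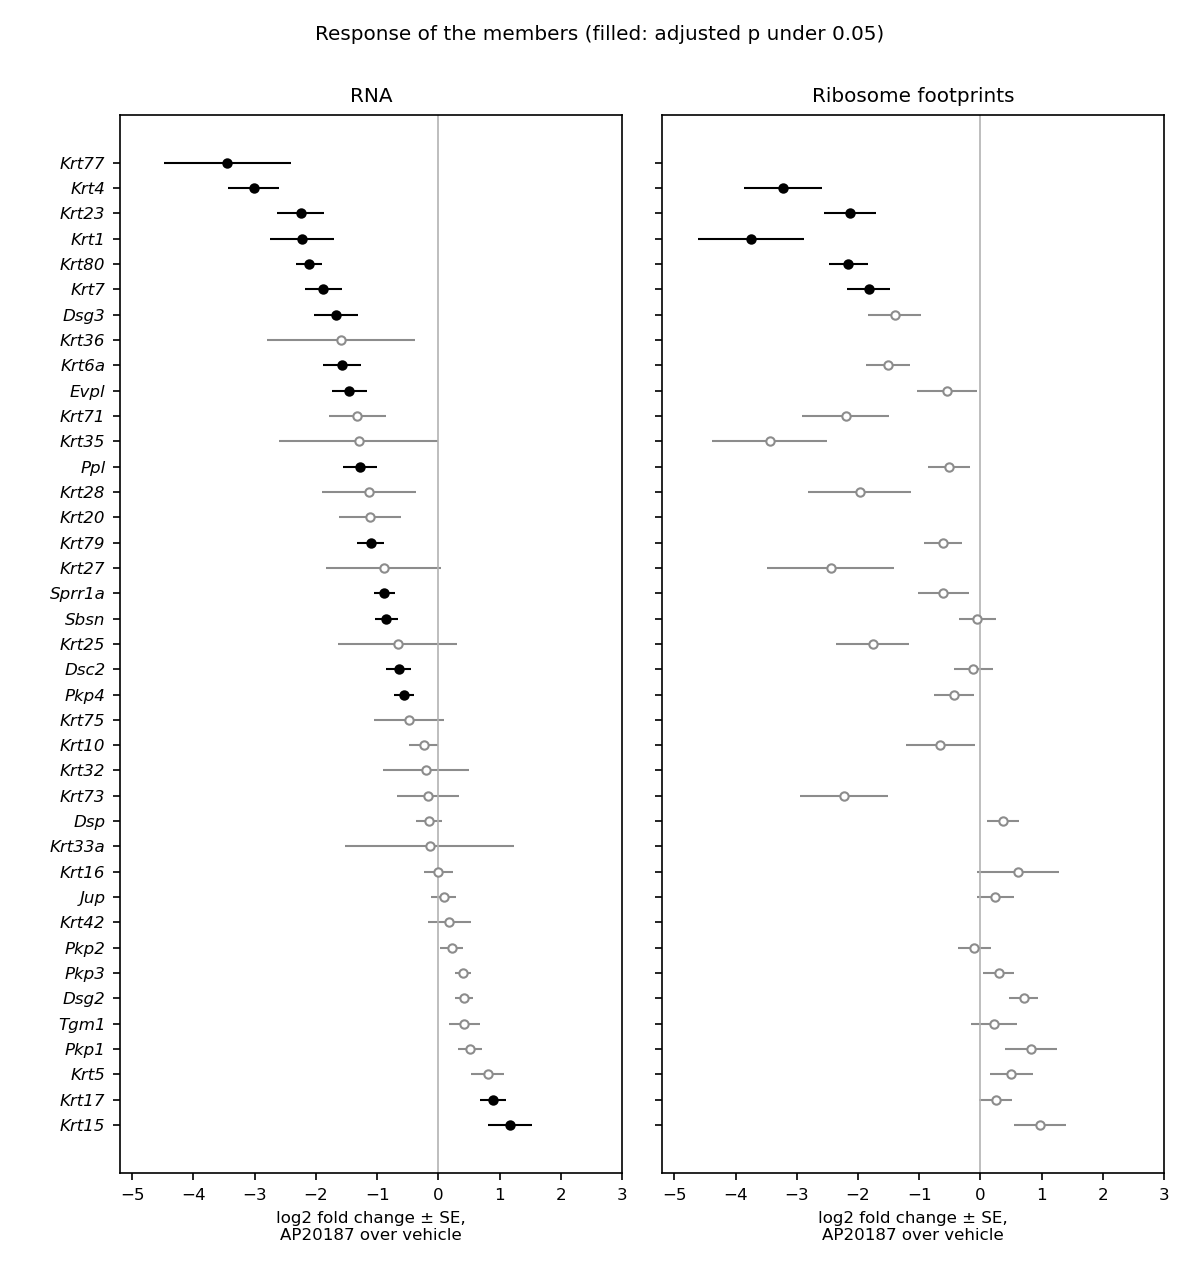
Log2 fold change ± SE, AP20187 over vehicle, of the 39 genes in RNA (left) and of the 32 tested in ribosome footprints (right), ordered by the RNA value; filled points passed an adjusted p of 0.05. Krt4, Krt23, Krt1, Krt80 and Krt7 are filled and below 0 in both panels. Krt77 had an AP20187 RNA library at 0, so its RNA point depends on the fit's prior count.

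Ribosome footprints, the fragments of mRNA protected by translating ribosomes, were counted for the same genes. Of the 39, 32 passed the filter on low counts, 0 were called higher, 5 were called lower and 27 did not pass, beside 0.937% higher, 1.6% lower and 2.54% in either direction of 7041 genes tested. At an unadjusted p under 0.05, 2 of the 32 were higher and 13 lower, beside 7.80% and 8.68% of all genes tested, and neither DESeq2 nor limma voom called any higher. Krt80 footprints were at 86.1, 41.6 and 70.1 CPM with AP20187 and 271, 255 and 351 CPM with vehicle, a log2 change of −2.16 ± 0.31 (SE, adjusted p = 0.0193). Krt7 footprints were at 253, 158 and 92.8 CPM with AP20187 and 521, 563 and 690.1 CPM with vehicle, a change of −1.83 ± 0.36 (adjusted p = 0.0295). The groups were clear of each other for both keratins. Krt4 footprints were at 4.43, 4.93 and 0.533 CPM with AP20187 and 30.5, 31.0 and 33.1 CPM with vehicle, a change of −3.23 ± 0.64 (adjusted p = 0.0307). Krt23 footprints were at 59.5, 107 and 26.9 CPM with AP20187 and 336, 277 and 223 CPM with vehicle, a change of −2.13 ± 0.43 (adjusted p = 0.0320). As in RNA, AP20187 library 2 was the highest of its group for Krt23. Krt1 rested on few reads, 9, 3 and 2 counts with AP20187 and 35, 15 and 21 counts with vehicle, with a change of −3.75 ± 0.87 (adjusted p = 0.0491). It passed the filter on low counts through the vehicle group alone, at means of 0.768 CPM with AP20187 and 10.9 CPM with vehicle. The same held for Krt28, Krt35 and Krt73, which were among the 13 lower at an unadjusted p. Such genes could hardly be found higher, so the counts of lower genes are partly set by the filter.

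The footprint calls were sensitive to single libraries. None of the 5 passed without vehicle library 1, 2 or 3 or without AP20187 library 1, where their adjusted p-values ran from 0.0566 to 0.122, 0.0644 to 0.111, 0.0574 to 0.0829 and 0.0525 to 0.238 in that order. Krt7 and Krt1 were also lost without AP20187 library 2 (adjusted p = 0.0553 and 0.115), and Krt1 without AP20187 library 3 (adjusted p = 0.106), with limma voom (adjusted p = 0.115) and with library totals as the only scaling (adjusted p = 0.0542). Replicate numbers paired the footprint libraries, and with that number as a block 1 of the 32 genes was higher and 7 were lower. Over all 7041 genes tested, 179 passed without the block and 715 with it. Dsg2 then rose by 0.70 ± 0.21 (SE, adjusted p = 0.0450), Dsg3 fell by 1.43 ± 0.34 (adjusted p = 0.0158) and Krt6a fell by 1.61 ± 0.31 (adjusted p = 0.00451) on the log2 scale. Without the block, Krt6a footprints were at 44.2, 45.0 and 17.3 CPM with AP20187 and 95.9, 98.9 and 108 CPM with vehicle (edgeR adjusted p = 0.0548). Dsg3 footprints were at 33.3, 18.8 and 13.6 CPM with AP20187 and 77.9, 32.6 and 63.3 CPM with vehicle (edgeR adjusted p = 0.125).

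Of the 17 genes called in RNA, 16 were tested in footprints and 5 were called in both. All 16 had the same sign in the 2 assays. Krt77, the RNA call without a footprint test, averaged 0.357 ± 0.228 footprint CPM with AP20187 (SD, n = 3) and 0 with vehicle. This direction was opposite to that in RNA, on very few reads. Both kinds of library came from the same cell pellets, so the assays are not independent. The point estimates differed for several envelope and desmosome genes and for Krt17, with larger errors in footprints. Evpl changed by −1.45 ± 0.29 in RNA and −0.55 ± 0.49 in footprints, and Sbsn by −0.85 ± 0.19 and −0.049 ± 0.30. Dsc2 changed by −0.65 ± 0.20 and −0.11 ± 0.32, and Ppl by −1.28 ± 0.28 and −0.52 ± 0.34. Krt17 changed by 0.89 ± 0.21 and 0.25 ± 0.27, all as log2 fold changes ± SE. Translational efficiency, footprints over RNA, was tested over all 12 libraries in a model with an interaction between treatment and assay. Of the 39 genes 0 passed (0% of all 7315 genes did), 2 had an unadjusted p under 0.05 (Krt73 and Krt77; 4.78% of all genes did), and 0 passed by DESeq2 or limma voom. Among the 5 keratins called in both assays, the efficiency change was 0.0069 ± 0.48 for Krt7, 0.069 ± 0.61 for Krt23, −0.089 ± 0.39 for Krt80, −0.26 ± 0.72 for Krt4 and −1.60 ± 0.93 for Krt1 (log2 ± SE). The lowest adjusted p of any of the 39 was 0.988. For Krt77 the efficiency value rested on 0 footprint counts in every vehicle library. The estimate for Evpl was 0.89 ± 0.48.

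Footprints per RNA differed widely between the genes. On a log2 scale relative to the median gene, Jup stood at 1.43 ± 0.161 with AP20187 and 1.30 ± 0.320 with vehicle (SD, n = 3 each), above 94.6% and 88.6% of the 6927 genes compared in the same groups. Krt6a stood at −1.94 ± 0.607 with AP20187 and −1.99 ± 0.0677 with vehicle, and Evpl at −1.67 ± 0.456 and −2.70 ± 0.780. Dsg3, Ppl, Pkp4, Dsp, Pkp1, Krt16 and Krt80 also lay below the median gene in every library pair. Evpl, Ppl and Dsp belong to the plakin family, and their values were −0.91 ± 0.325 with AP20187 and −1.69 ± 0.492 with vehicle for Ppl, and −0.79 ± 0.171 and −1.32 ± 0.591 for Dsp. Krt5 stood at 0.44 ± 0.409 with AP20187 and 0.80 ± 0.0447 with vehicle. No correction was made for untranslated length, and Krt6a shares 55.4% of its 30-base and 49.5% of its 50-base windows with other genes.

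**Figure D4:**
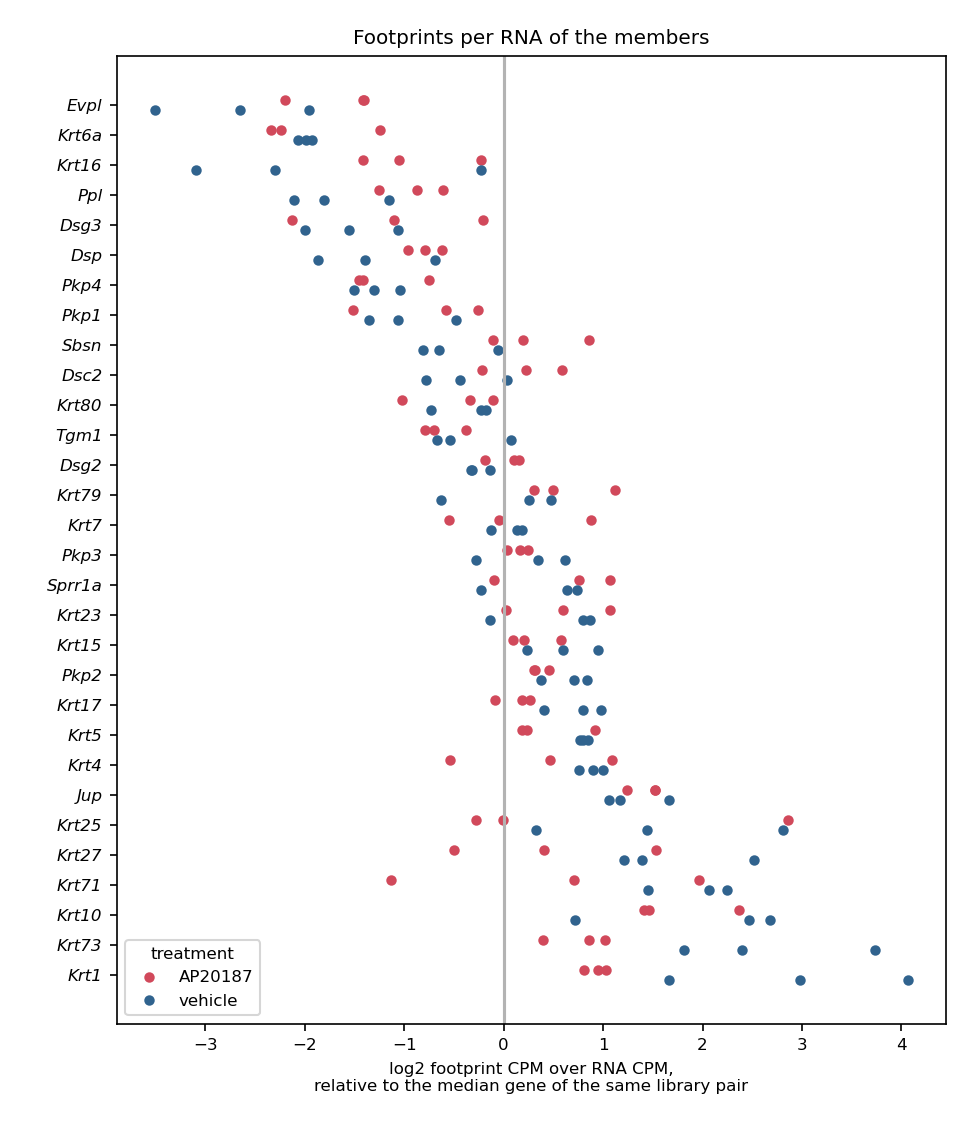
Log2 of footprint CPM over RNA CPM, relative to the median gene of the same library pair, with 1 point per pair for AP20187 (red, upper) and vehicle (blue, lower), for members with a mean footprint level of at least 5 CPM. Evpl, Krt6a, Krt16, Ppl, Dsg3, Dsp, Pkp4, Pkp1 and Krt80 lie below 0 in every pair. Jup, Krt5, Krt10, Krt15, Krt1, Krt73 and Pkp2 lie above 0 in every pair.

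The 11 hair and nail keratins did not pass in RNA. At an unadjusted p under 0.05, 1 of them was lower (Krt71), beside 20.5% of all genes tested, DESeq2 called 1 lower and limma voom 0. Krt71, a type II keratin of the inner root sheath, was at 6.67, 3.85 and 3.15 CPM with AP20187 and 13.2, 4.80 and 16.3 CPM with vehicle, a log2 change of −1.32 ± 0.47 (SE, adjusted p = 0.0685, and 0.0191 without vehicle library 2). The other inner root sheath keratins were scarcer: Krt25 averaged 3.88 ± 3.41 CPM with AP20187 and 6.14 ± 4.14 CPM with vehicle (SD, n = 3 each), Krt27 1.34 ± 1.45 and 2.53 ± 2.02 CPM, Krt28 0.798 ± 0.760 and 1.78 ± 1.07 CPM, and Krt73 1.12 ± 0.424 and 1.27 ± 0.618 CPM. Krt75, of the companion layer of the follicle, averaged 1.02 ± 0.381 CPM with AP20187 and 1.43 ± 0.910 CPM with vehicle, and Krt42, a nail keratin in mouse, 4.86 ± 2.24 and 4.29 ± 0.437 CPM. Of the hair shaft keratins, Krt33a was at 5.30, 0.0512 and 0.0430 CPM with AP20187 and 3.14, 1.10 and 1.78 CPM with vehicle. Krt35 was at 1.33, 0.0512 and 0 CPM with AP20187 and 1.60, 0.300 and 1.67 CPM with vehicle, while Krt32 and Krt36 averaged under 1 CPM in both groups. For both Krt33a and Krt35 AP20187 library 1 stood far above the other 2, and without it they passed, at adjusted p-values of 0.0178 and 0.0367.

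The hair keratins other than Krt42 varied together between libraries of the same group. Their summed RNA level was 26.5, 6.81 and 13.5 CPM in the AP20187 libraries and 34.8, 10.1 and 42.0 CPM in the vehicle libraries. Vehicle library 2 was the lowest of its group for 10 of these 10 genes, and AP20187 library 1 the highest of its group for 9. Their summed footprints were 26.7, 27.4 and 9.86 CPM with AP20187 and 83.3, 62.0 and 147 CPM with vehicle, without overlap. Of the 6 tested in footprints, Krt25, Krt27, Krt28, Krt71, Krt73 and Krt35, 0 passed, DESeq2 called 3 lower and limma voom 0. All 6 were lower at an unadjusted edgeR p under 0.05, beside 8.68% of all genes tested. Krt28, Krt35 and Krt73 footprints averaged 1.77, 0.608 and 2.02 CPM with AP20187 and 7.17, 7.27 and 9.61 CPM with vehicle. These 3 passed the filter on low counts through the vehicle group alone, so they could hardly be found higher. The counts of lower hair keratins are therefore partly set by the filter. These footprint sums rested on 37 to 283 counts with AP20187 and 114 to 565 counts with vehicle. Krt33a shares 36.4% of its 30-base windows with other hair keratins and Krt27 18.1%, so single values within this group are uncertain.

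**Figure D5:**
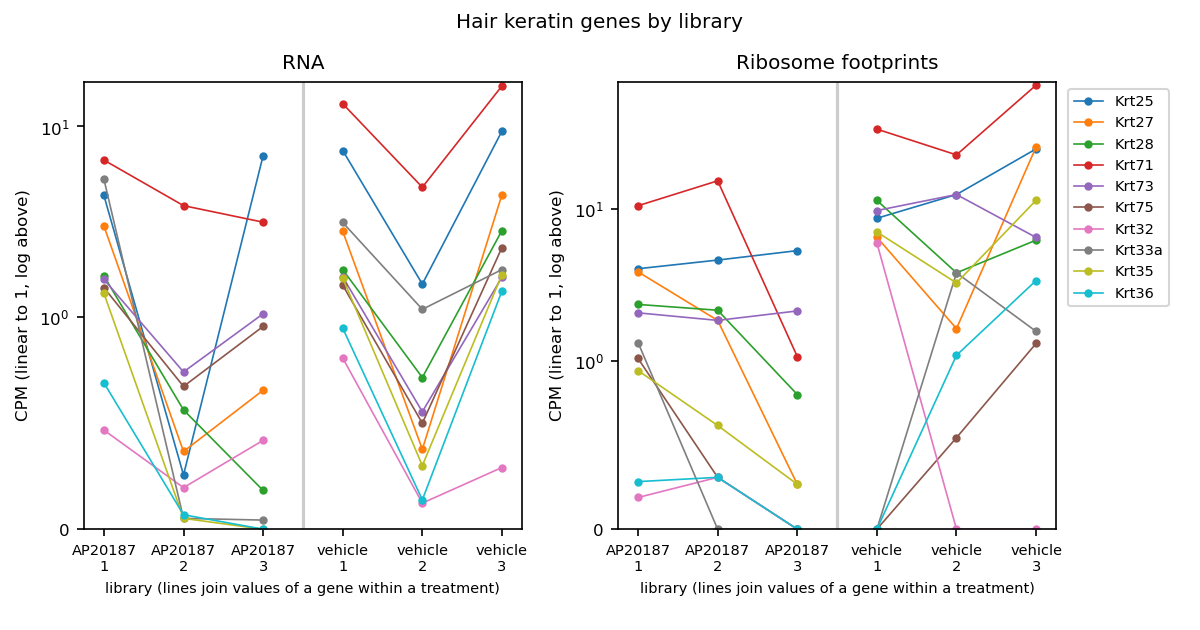
Level of 10 hair keratin genes in each library in CPM (axis linear to 1 and logarithmic above), RNA left and ribosome footprints right, AP20187 libraries left of vehicle libraries in each panel; lines join the values of a gene within a treatment and imply no order. In RNA most genes dip together in vehicle library 2 and stand highest in AP20187 library 1 of their groups.

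Neighbouring gene sets, from lists compiled with earlier results of these data known, moved in both directions. Over all 7314 genes tested in RNA, 12.4% were higher and 13.9% lower, with a median log2 fold change of 0.013. Of the 4 mammary keratins left out of the rule, Krt8 and Krt18 rose in RNA by 1.15 ± 0.24 and 0.94 ± 0.22 and Krt19 fell by 1.13 ± 0.16 and Krt14 fell by 1.08 ± 0.21 on the log2 scale (SE, edgeR adjusted p = 0.0146, 0.0199, 0.00660 and 0.0116). Among 6 listed adherens junction genes 1 rose and 2 fell: Cdh1, encoding E-cadherin, changed by 0.61 ± 0.17, Vcl, encoding vinculin, by −1.24 ± 0.22, and Ctnnb1, encoding beta-catenin, by −0.50 ± 0.14. Among the 9 hemidesmosome genes, which anchor keratins to the basement membrane, 3 rose and 3 fell. The receptor subunit gene Itgb4 rose by 0.94 ± 0.16 and the tetraspanin gene Cd151 by 0.80 ± 0.19, while the laminin chain gene Lama3 changed by −0.97 ± 0.23. Of 15 epidermal regulators 2 rose, Zfp750 by 2.23 ± 0.36 and Tfap2c by 0.63 ± 0.15, and 0 fell; Trp63, the master regulator of stratified epithelia, changed by 0.60 ± 0.19 and did not pass (adjusted p = 0.0534). Of 15 other cornification genes 4 rose and 7 fell, with a median of −0.67. Scel, encoding sciellin, fell by 2.07 ± 0.21 and the transglutaminase gene Tgm5 fell by 1.90 ± 0.27, whereas the protease gene Klk10 and the fatty acid transporter gene Slc27a4 rose by 3.90 ± 0.51 and 1.69 ± 0.23.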

How the data were processed

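RNA and ribosome footprints of the same cell pellets were measured in 12 libraries, and the groups were taken from the sample titles. The authors deposited raw counts per gene symbol, without normalization. The submitters' processing notes name HTSeq, STAR, Bowtie2, cutadapt and bcl2fastq 1.8.3, and the build mm10. The sources used here do not give the role of each tool, the strand setting, the handling of reads with several matches or how the listed genes were chosen, so totals over the listed genes are not full sequencing depths. The RNA kit marks strand, but 10 of the 39 genes have an exon that overlaps another annotated gene and are uncertain to that extent.

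Counts were scaled by TMM, filtered with filterByExpr and tested over all genes that passed with edgeR 4.0.16 (R 4.3.3, quasi-likelihood). P-values were 2-sided, with Benjamini-Hochberg adjustment and a threshold of 0.05. RNA and footprints were fitted on 6 libraries each with treatment as the term, and translational efficiency as the interaction of assay and treatment over 12. Every adjusted p is from edgeR unless another tool is named. SE comes from the F statistic and SD from the 3 libraries of a group. DESeq2 1.42.0, limma voom (limma 3.58.1), other scalings, no filter, a replicate block and leaving out each library were tried. The procedure was tested on simulated counts. A floor of 3 counts corresponded to 0.0121 to 0.0322 CPM in RNA and 0.283 to 1.63 CPM in footprints, and covers counting error only.

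Replicate numbers paired the footprint libraries: deviations from the group means correlated between same-numbered AP20187 and vehicle libraries across 7055 genes at 0.186, 0.274 and 0.385. In RNA they did not (0.209, −0.054 and −0.049). Between footprint and RNA libraries of the same number the correlations were 0.459, 0.526 and 0.365 with AP20187 and 0.0425, 0.0874 and 0.336 with vehicle. Footprint vehicle library 1 correlated more with RNA vehicle library 2 (0.166) than with RNA vehicle library 1. The library pairs behind footprints per RNA were thus weakly matched for vehicle libraries 1 and 2.

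Footprints per RNA are log2 of CPM plus 0.5 in footprints over CPM plus 0.5 in RNA, minus the median over 6927 genes with a mean of at least 5 footprint CPM. Shared windows are stretches of 50 or 30 bases of a gene's transcripts that also occur in another gene of the GENCODE annotation. Members and lists were chosen with earlier results of these data known, and the role groups, keratin sets and gene pairs after the values were seen. Members called in any comparison or with a mean of at least 1 CPM in an RNA group are named with values, Krt32 and Krt36 being named without meeting this rule, and up to 4 genes per list with the smallest p in RNA. A gene that met this rule is not reported here.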

Additional observations from a re-analysis of the deposited data

How the results depend on the processing

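In RNA, the members called lower numbered 15 and those higher 2. Members higher numbered 6 with DESeq2 and 1 each with library totals alone, limma voom and the replicate block, where 12 were lower and 1281 genes were called in all, against 1919. The block ended the RNA calls on Dsc2, Krt1, Krt15 and Krt77, at adjusted p-values of 0.0995, 0.0647, 0.107 and 0.0945. Leaving out each library gave 538 to 2214 genes called, 0 to 3 members higher and 8 to 15 lower. Of the 17 calls, 7 (Evpl, Krt23, Krt4, Krt6a, Krt7, Krt79 and Krt80) held in each of these fits. In footprints, 179 genes and 5 members lower were called. DESeq2 called 528 genes and 10 members lower, and the replicate block 715 genes with 1 member higher. Leaving out each library gave 0 to 186 genes and 0 to 5 members lower. For translational efficiency, DESeq2 called 10 genes, and leaving out each library gave 0 to 1.

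Directions reversed only in values that did not pass. Krt16 in RNA was −0.083 with limma voom and −0.029 with the replicate block. Krt7 efficiency was −0.012 with the replicate block by number and −0.013 by pellet. With single libraries left out, RNA log2 fold changes ran from −0.35 to 0.021 for Dsp, −0.10 to 0.25 for Jup, −0.26 to 0.19 for Krt16, −5.36 to 0.44 for Krt33a, −0.23 to 0.45 for Krt42, −0.51 to 0.071 for Krt73 and −0.86 to 0.046 for Krt75. Footprint changes ran from −0.35 to 0.15 for Dsc2, −0.24 to 0.051 for Pkp2, −0.26 to 0.19 for Sbsn and −0.32 to 0.50 for Tgm1. Efficiency changes ran from −0.47 to 0.66 for Krt23, −0.58 to 0.27 for Krt4, −0.36 to 0.40 for Krt7 and −0.26 to 0.16 for Krt80. The cause was not tested. Where a group keeps 2 libraries, fewer samples enter each fit. No other scaling moved the median of all genes by over 0.1 on the log2 scale. Of the 39 genes, 7 did not pass the footprint filter on low counts.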

Other observations

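Krt8 and Krt18, the partners of the luminal keratin pair, took unequal shares of the keratin pool in the 2 assays. Per kilobase of exon, Krt18 held 31.7 ± 3.85% of keratin RNA with AP20187 and 17.9 ± 2.84% with vehicle (SD, n = 3 each). The means for Krt8 were 24.8 ± 3.84% with AP20187 and 12.01 ± 2.46% with vehicle. In footprints, Krt18 held 46.5 ± 7.59% with AP20187 and 27.4 ± 6.46% with vehicle, and Krt8 6.70 ± 1.86% and 3.86 ± 0.287%. Krt8 shares 32.9% of its 30-base windows with other annotated genes and Krt18 12.4%, and the part of this in the footprint values was not tested.

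Within the plakin family, log2 of Evpl counts over Dsp counts, not scaled by length, was −3.23, −2.97 and −3.54 in AP20187 RNA libraries. In vehicle RNA libraries it was −2.04, −1.83 and −1.75. In footprints it was −4.05, −4.26 and −4.22 with AP20187 and −2.86, −3.12 and −3.93 with vehicle. The groups did not overlap in either assay, in footprints only narrowly, for a pair chosen after the values were seen. Evpl footprints in vehicle libraries 1, 2 and 3 were 34, 43 and 39 counts. How often other gene pairs fail to overlap was not tested.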
